A study of Mus musculus with 6 samples.

Results

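The genes described here encode 10 receptors for lipids and chemoattractant peptides: Gpr132, Gpr18, Gpr183, Fpr1, Fpr2, Ptafr, C5ar1, C3ar1, S1pr1 and Cysltr1. They were taken by gene symbol, as the lipid, formyl peptide and complement peptide receptors of interest in macrophages, out of the 32879 genes to which a RefSeq record of the count files could be matched. The choice was made with earlier results of these data known. All 10 had a matched record, and 9 passed the low-count filter that left 10505 genes for testing. These receptors cross the membrane in a bundle of helices and pass the binding of a ligand to heterotrimeric G proteins inside the cell. In macrophages and other leukocytes they steer migration toward sites of infection or tissue damage and adjust the response to dying cells, microbes and inflammatory lipids. Arrestins and G-protein-coupled receptor kinases switch them off again.

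The PMs, macrophages of the peritoneal cavity, were cell-sorted as CD11b+ F4/80+ cells from female mice of 2 kinds. The control mice were [NZW x BALB/c]F1 animals aged 33, 33 and 30 weeks (control 1 to 3). The diseased-BWF1 mice were [NZB x NZW]F1 animals aged 31, 31 and 34 weeks (diseased-BWF1 1 to 3), a cross that develops a lupus-like disease, and they were selected for high titres of antibodies to double-stranded DNA and severe proteinuria. Both crosses share the NZW parent, each sample is 1 mouse, and the disease and the parental strain cannot be told apart in this design. Total estimated counts were 5003360, 4187106 and 3629901 in control 1 to 3 and 4307327, 4226538 and 4083357 in diseased-BWF1 1 to 3.

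Markers of peritoneal macrophages were abundant in every library. Gata6, the transcription factor of large peritoneal macrophages, had 359, 454 and 311 normalized counts in control 1 to 3 and 425, 409 and 262 in diseased-BWF1 1 to 3, where normalized counts are counts divided by a size factor for each library. All 8 macrophage markers were tested and 0 were called by edgeR's quasi-likelihood test, against 2 at an unadjusted p under 0.05, 0 by DESeq2 and 0 by limma-voom. Of all 10505 tested genes, edgeR's quasi-likelihood test called 1.22% and gave 13.2% an unadjusted p under 0.05. DESeq2 called 3.54% and limma-voom 0.866%. The 2 markers were Timd4, a receptor for dying cells on resident macrophages, with means of 4691 and 3250 normalized counts in control and diseased-BWF1 mice, and Icam2, an adhesion molecule, with 1497 and 1020.5. The control mice were all above the diseased-BWF1 mice for 4 of the 8 markers, Timd4, Icam2, Adgre1 and Lyz2, and 20.8% of all tested genes had groups without overlap in either direction. The list summed to 142114, 154117 and 190494 normalized counts in control 1 to 3 and to 139901, 130986 and 120395 in diseased-BWF1 1 to 3. Lyz2, the lysozyme of myeloid cells, was its most abundant gene, and the groups overlapped without it, at 45239, 43551 and 38039 in control mice and 43464, 42004 and 43134 in diseased-BWF1 mice. Adgre1, which encodes the F4/80 antigen used in the sort, had 8296 ± 241 normalized counts (SD, n = 3) among control mice against 7370 ± 348 in the diseased-BWF1 group, and Itgam, which encodes CD11b, had 24218 ± 3083 and 26562 ± 1808.

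Among the receptors, Gpr132 was the 1 gene called, in counts summed over its records. The call was lost in several alternative fits, and the counts of the groups stood on different records, both described below. The product of Gpr132 is a receptor of lysophospholipid and oxidized fatty acid responses that macrophages use in migration. Calls required a Benjamini-Hochberg adjusted p under 0.05 by edgeR's quasi-likelihood test together with a change of at least 1.5-fold. Of the 9 tested receptors 1 was called, beside 128 of 10505 genes (1.22%) in either direction and 42 (0.4%) in the direction of Gpr132. Since the receptors were chosen with earlier results known, these shares are a description and not a test. In the control mice Gpr132 had 11.6, 12.3 and 11.5 normalized counts, and in the diseased-BWF1 mice it had 47.2, 67.9 and 38.3. The diseased-BWF1 mice were all above the control mice, and the control values lay within about 1 normalized count of each other. Gpr132 was the 1 tested receptor whose groups did not overlap, as was the case for 20.8% of all tested genes.

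Summed over its records, Gpr132 was 4.29-fold higher in PMs of diseased-BWF1 mice, which is 2.10 on the log2 scale (SE 0.30, 95% CI 1.40 to 2.80). The Benjamini-Hochberg adjusted p was 0.028 by edgeR's quasi-likelihood test. This fold change compares counts that stood on different records in the groups, and it holds for the counts as assigned. An exact two-sided permutation test of the difference of means gave p = 0.1, the smallest value that 3 mice against 3 can give. The means were 11.8 ± 0.471 normalized counts (SD, n = 3) for the control group and 51.1 ± 15.1 for the diseased-BWF1 group. The counts were low, between 10 and 67 per library, and in bulk RNA a difference in the number of cells of a type and a difference in RNA per cell cannot be told apart. Without control 1, 2 or 3 or diseased-BWF1 1 or 2 the Benjamini-Hochberg adjusted p by edgeR's quasi-likelihood test was 0.1003, 0.107, 0.081, 0.09 and 0.0677, so the call was kept in 1 of 6 fits, that without diseased-BWF1 3 (0.0421), while the log2 fold change stayed between 1.85 and 2.27. The call was also lost with limma-voom (adjusted p 0.0578, Benjamini-Hochberg). By edgeR's quasi-likelihood test it was lost with curated mRNA records only (0.0595) and with the replicate number as a block (0.0649). The adjusted p, by the test of each fit, ranged from 2.52e-04 to 0.107 over all 15 alternatives.

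**Figure D1:**
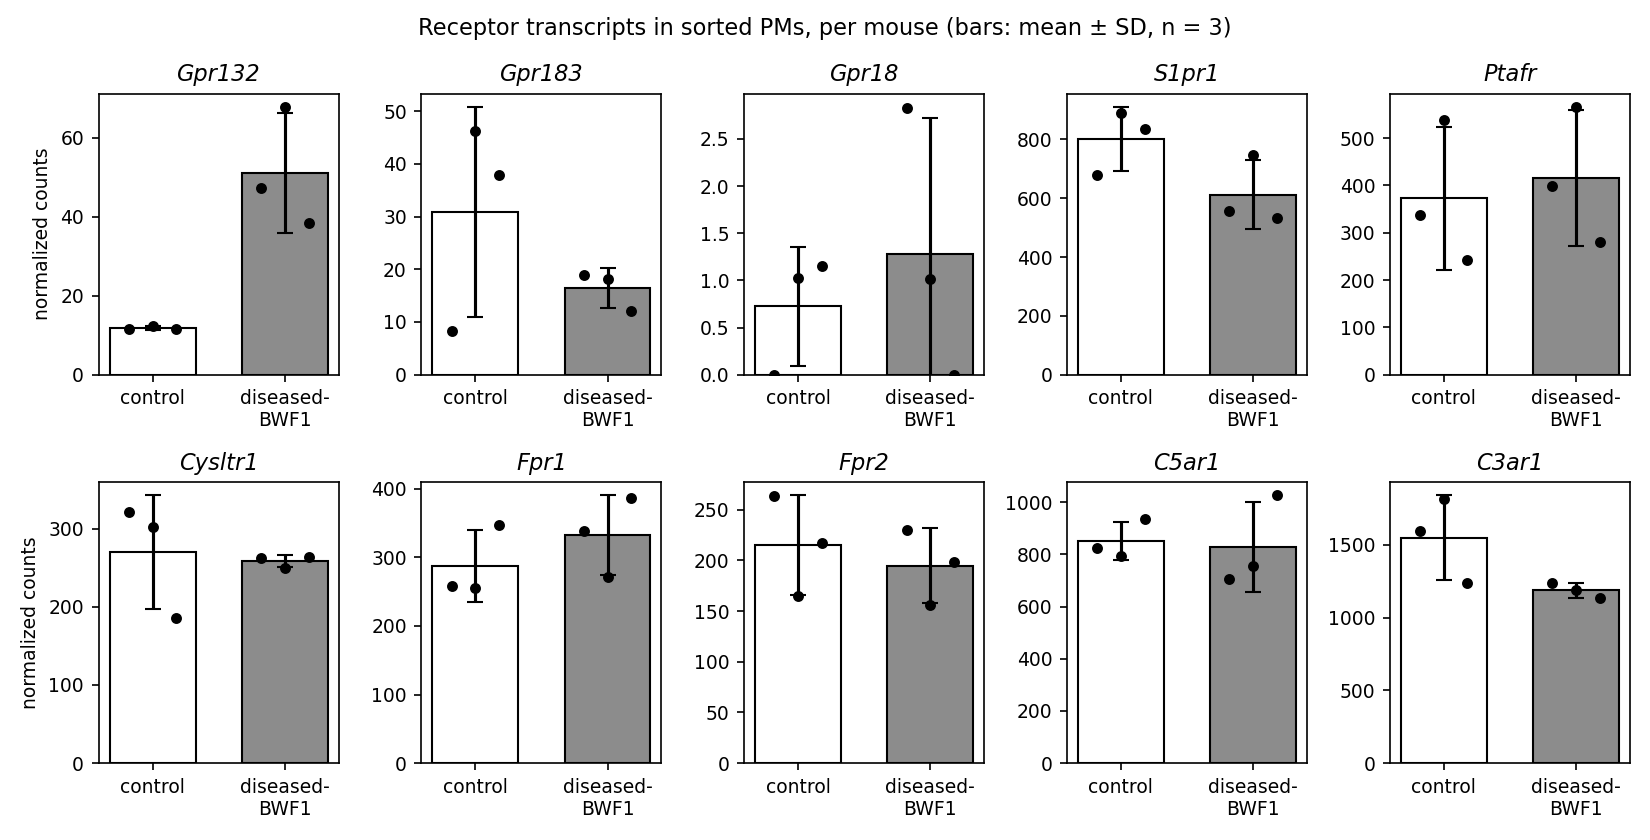
Normalized counts of the 10 receptors in PMs (vertical axes, each from 0) for control mice (white bars) and diseased-BWF1 mice (gray bars). Bars give the mean, error bars the SD and dots the 3 mice of a group; the Gpr132 dots of diseased-BWF1 mice (38.3 to 67.9) lie above those of control mice (11.5 to 12.3), and in the other 9 panels the groups overlap.

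The records behind the Gpr132 sum differed completely between the groups. The files hold 3 RefSeq records of this gene: the curated mRNA NM_019925.4 and the predicted mRNAs XM_006516102.2 and XM_006516103.2. NM_019925.4 had 0 counts in each of the 3 control mice and 50, 67 and 38 counts in diseased-BWF1 1 to 3. XM_006516103.2 had 14, 12 and 10 counts in control 1 to 3 and 0 counts in each diseased-BWF1 mouse. XM_006516102.2 was at 0 in all 6 mice. Thus 100% of the Gpr132 counts of every control mouse stood on a predicted record, and 100% of those of every diseased-BWF1 mouse stood on the curated one.

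Set against a floor of 3 counts over the 3 control mice, the mean of NM_019925.4 in diseased-BWF1 mice was 52-fold higher. The mean of XM_006516103.2 in control mice was 11.95-fold above the same floor over the diseased-BWF1 mice. These floors cover counting error only, and the spread among the mice behind each mean is not included. With each record as a feature, neither passed: the Benjamini-Hochberg adjusted p of edgeR's quasi-likelihood test was 0.176 and 0.288 over 20332 records. That test called 13 records in all (0.0639%), whereas DESeq2 called 568 (2.79%), both Gpr132 records among them, with Benjamini-Hochberg adjusted p of 3.18e-07 and 0.00528. Each record had counts in a single group and passed the low-count filter through that group alone. The DESeq2 p-values therefore restate the split of the counts and give no separate support. Reads that fit several records of a gene are divided among them by an estimate, so the records are not independent measurements. How far the reads of a mouse distinguish the records was not tested. The groups differ in a parental strain. A difference in the transcripts and a difference in how reads of another strain are assigned to reference records therefore cannot be told apart. The same limit applies to the summed Gpr132 counts and their fold change, and all these values hold for the counts as assigned.

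A parting of records of this kind was rare. Of 6300 genes with several records and at least 10 counts in every mouse, 64 had a record at 0 in all control mice with at least 10 counts in each diseased-BWF1 mouse, and 59 had the opposite. Both occurred together in 3 genes (0.0476%), which were Gpr132, Pkib and Ppip5k2. This count was chosen after the Gpr132 values had been seen. The other receptors with several records did not part in this way: NM_007577.4 of C5ar1 had 567, 625 and 578 counts in control 1 to 3 and 474, 563 and 544 in diseased-BWF1 1 to 3. The Cysltr1 record NM_021476.5 had 226, 129 and 152 counts in control mice and 181, 197 and 170 in diseased-BWF1 mice. A further Cysltr1 record, NM_001281859.1, was uneven, with 148, 164 and 10 counts in control mice and 88, 40 and 91 in diseased-BWF1 mice, and it held more counts than NM_021476.5 in control 2.

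**Figure D2:**
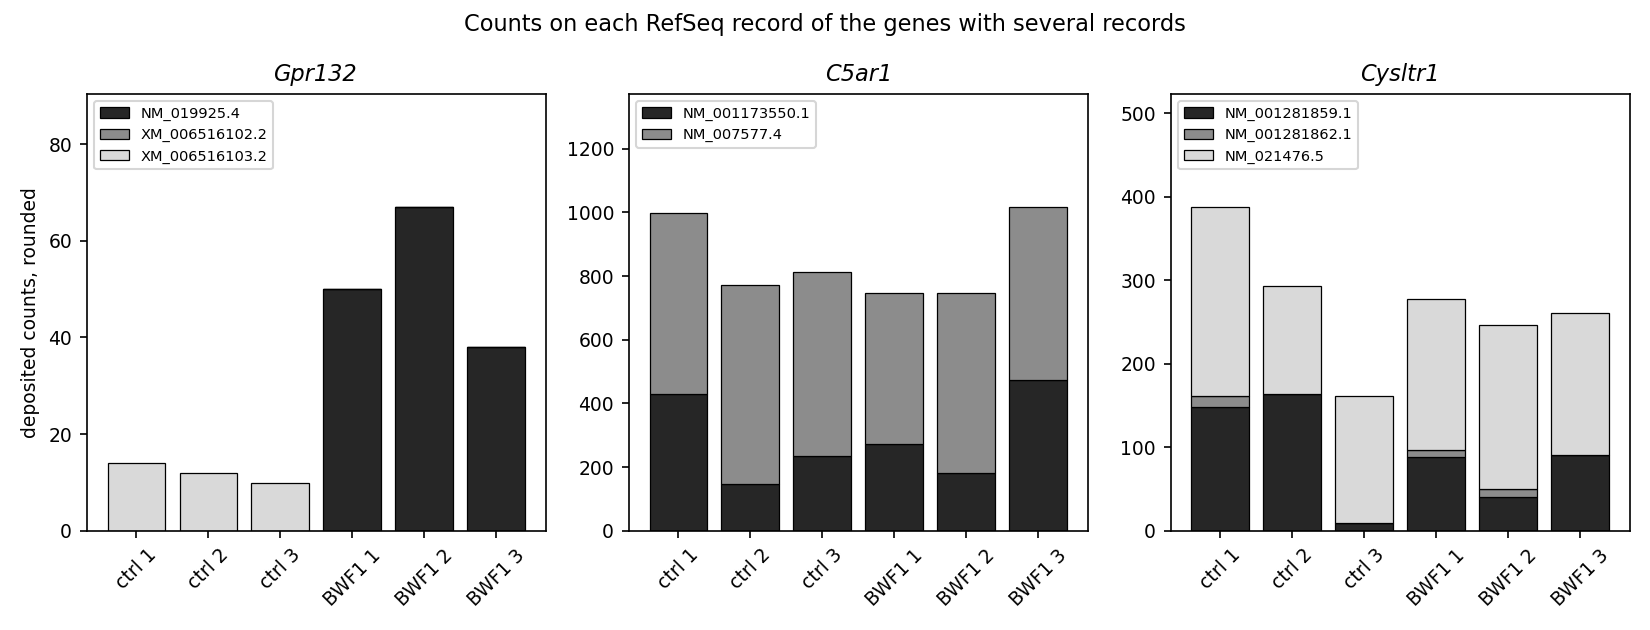
Deposited counts, rounded to whole numbers (vertical axes, each from 0), of each RefSeq record of Gpr132, C5ar1 and Cysltr1 in control (ctrl) 1 to 3 and diseased-BWF1 (BWF1) 1 to 3, stacked and shaded by record. The Gpr132 counts of control mice (10 to 14) lie on XM_006516103.2 and those of diseased-BWF1 mice (38 to 67) on NM_019925.4, while NM_007577.4 of C5ar1 and NM_021476.5 of Cysltr1 have counts in all 6 mice.

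In the RefSeq annotation of GRCm38.p6, Gpr132 lies on chromosome 12 from 112850873 to 112868416, and the GENCODE models of the gene, on the minus strand, differ at both ends. The transcript paired with NM_019925.4 has 3 exons and begins with an exon at 112860870 to 112860952. The other model has 4 exons and begins farther upstream, with exons at 112868131 to 112868228 and 112867017 to 112867155. Both then use the exon at 112855815 to 112855905, which holds the start codon. The last exon runs from 112850873 to 112853176 in the model paired with NM_019925.4 and from 112853147 to 112853176 in the other. No GENCODE transcript was paired with the predicted records. A long noncoding RNA gene, Gm30461, overlaps Gpr132 from 112860144 to 112865314 and had at most 5 counts in any library, and reads of overlapping genes cannot be assigned with certainty where the use of strand in counting is not given in the sources used here.

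The promoters of Gpr132 and of S1pr5, described further on, are shown because these genes carried the called differences. Each window runs from 250 bases before to 50 bases after the annotated start in RefSeq, build GRCm38.p6, both on the minus strand: chr12:112860867-112861166 for Gpr132, at the first exon of the NM_019925.4 model, and chr9:21248394-21248693 for S1pr5. Capitals mark the matches to a motif search on both strands for AP-1 (TGANTCA), PU.1 (GAGGAA), C/EBP (TTGCNNCAA), NF-kB (GGG and CC with 5 free bases between), an E-box (CACGTG) and an interferon element (a pair of GAAA with 2 free bases between). An entry was present for 8 of the 10 receptors.
Gpr132: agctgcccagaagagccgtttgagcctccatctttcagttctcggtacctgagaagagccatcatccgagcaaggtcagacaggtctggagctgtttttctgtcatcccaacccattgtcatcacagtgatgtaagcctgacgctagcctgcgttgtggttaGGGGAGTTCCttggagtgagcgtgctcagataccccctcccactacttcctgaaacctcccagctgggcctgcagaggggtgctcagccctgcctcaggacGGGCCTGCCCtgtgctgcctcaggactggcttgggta
S1pr5: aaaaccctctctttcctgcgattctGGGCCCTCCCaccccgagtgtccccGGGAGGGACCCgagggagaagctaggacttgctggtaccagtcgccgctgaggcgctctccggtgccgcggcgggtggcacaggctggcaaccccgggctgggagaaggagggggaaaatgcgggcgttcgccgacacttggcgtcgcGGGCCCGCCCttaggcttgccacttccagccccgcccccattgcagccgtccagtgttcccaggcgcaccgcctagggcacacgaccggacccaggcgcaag
All the capitals are NF-kB matches, 2 in the Gpr132 window and 4 in the S1pr5 window, of which 2 overlap. This pattern is loose, since 50.8% of 32851 promoter windows hold it. For the other motifs the shares were 28.3% (PU.1), 7.81% (AP-1), 7.15% (E-box), 3.44% (interferon element) and 2.08% (C/EBP). Of the other receptors with an entry, C3ar1 held an AP-1 match 22 bases and an NF-kB match 14 bases before its start, Fpr2 and Ptafr a PU.1 match 19 and 242 bases before, and Gpr18 an interferon element match 41 bases before. C5ar1, Fpr1 and Gpr183 held no match to any of the 6 motifs. The matches describe letters only, and binding was not measured.

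The sphingosine-1-phosphate and oxysterol receptors gave no called member. S1pr1 (chromosome 3, 115710433 to 115715055), which lets lymphocytes and macrophages sense sphingosine-1-phosphate, had 680, 890 and 836 normalized counts in control 1 to 3 and 557, 746 and 534 in diseased-BWF1 1 to 3. The groups overlapped through control 1 and diseased-BWF1 2, and the log2 fold change was -0.39 (95% CI -0.81 to 0.031). Gpr183 (chromosome 14, 121952331 to 121965193), the oxysterol receptor that positions B cells and other leukocytes in lymphoid tissue, had 8.27, 46.3 and 37.9 normalized counts in control mice and 18.9, 18.2 and 12.1 in diseased-BWF1 mice. Control 1 lay below every diseased-BWF1 mouse and the other control mice above them, and the interval of the log2 fold change of -0.89 ran from -2.27 to 0.50. Gpr18 (chromosome 14, 121911434 to 121915888), a receptor linked to endogenous lipid mediators, was barely detected, with 0, 1 and 1 counts in control 1 to 3 and 3, 1 and 0 in diseased-BWF1 1 to 3. It was below the low-count filter, and a difference was not detectable at this depth. Gpr18 and Gpr183 both lie within Ubac2 (chromosome 14, 121878559 to 122021035), which had 90.1 normalized counts on average in control and 97 in diseased-BWF1 mice. Of the 75-base stretches of their transcripts, 1424 for Gpr18 and 2650 for Gpr183, 0 occur in GENCODE transcripts of other genes on either strand. Reads from outside annotated transcripts were not examined.

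Another receptor of sphingosine-1-phosphate did differ. S1pr5, known from natural killer cells and patrolling monocytes, had 209, 170 and 181 normalized counts in control mice and 453, 507 and 515 in diseased-BWF1 mice. All diseased-BWF1 mice were above all control mice, by 2.62-fold, a log2 fold change of 1.39 (SE 0.13, 95% CI 1.09 to 1.70) and a Benjamini-Hochberg adjusted p of 0.00735 by edgeR's quasi-likelihood test. Without control 2 the Benjamini-Hochberg adjusted p of that test was 0.0532, in a range from 2.25e-13 to 0.0532 over 15 alternatives, and S1pr5 was called with each of the other mice left out in turn. S1pr5 was the only one of 19 tested related receptors to be called, of a list of 53, beside 1.22% of all tested genes in either direction and 0.4% higher. This list too was chosen with earlier results of these data known. Of the 19, 6 had groups without overlap, beside 20.8% of all tested genes. S1pr2, a further receptor of the same lipid, had 40.0 ± 2.76 normalized counts (SD, n = 3) among control mice against 38.3 ± 7.54 in diseased-BWF1 mice, and S1pr3 was at 0 in all mice.

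Markers of monocytes and small peritoneal macrophages were, like Gpr132 and S1pr5, higher in sum in each diseased-BWF1 mouse than in each control mouse. The list summed to 269.7, 243 and 169 normalized counts in control 1 to 3 and to 769.6, 849 and 778 in diseased-BWF1 1 to 3. Of the 8 genes of the list 5 were tested and 1 was called by edgeR's quasi-likelihood test, with 4 at an unadjusted p under 0.05, 1 call by limma-voom and 3 by DESeq2. Over all tested genes these shares were 1.22%, 13.2%, 0.866% and 3.54%. Ace, which encodes angiotensin-converting enzyme, had 29, 38.1 and 27.6 normalized counts in control mice and 63.3, 205 and 96.8 in diseased-BWF1 mice. Nr4a1, a transcription factor gene, had 38.1, 58.6 and 12.6 in control mice and 142, 151 and 88.8 in diseased-BWF1 mice. Both were called by DESeq2 and not by edgeR, and the groups did not overlap for either gene, as for 20.8% of all tested genes. For Irf4, Ccr2 and Plac8 the groups overlapped. Their means in control and diseased-BWF1 mice were 45.8 and 115, 7.09 and 20.0, and 9.17 and 12.0 normalized counts, and Plac8 was not tested. Ly6c2 and Itgax were near 0, with means of 0.276 and 0.686 in control mice and 0 and 0.315 in diseased-BWF1 mice. The part of such cells in the Gpr132 and S1pr5 values was not tested.

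The receptors of platelet-activating factor and of cysteinyl leukotrienes overlapped between the groups. Ptafr (chromosome 4, 132564067 to 132582683), which triggers calcium release and chemotaxis on binding platelet-activating factor, had 337, 539 and 242 normalized counts in control mice and 399, 566 and 281 in diseased-BWF1 mice. The spread within each group was larger than the difference between them, with a log2 fold change of 0.15 (95% CI -0.65 to 0.96). Cysltr1 (chromosome X, 106576509 to 106603679), through which leukotrienes contract airway muscle and activate myeloid cells, had 321, 301 and 186 normalized counts in control mice and 262, 250.2 and 263 in diseased-BWF1 mice. The diseased-BWF1 values of Cysltr1 all lay inside the range of the control values, and the log2 fold change was -0.065 (95% CI -0.54 to 0.41). Of the 75-base stretches of the Ptafr transcript 0.421% also occur in other genes on the same strand and 0.533% on the opposite strand, and Cysltr1 shared none.

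The formyl peptide receptors, which detect N-formylated peptides of bacteria and mitochondria, lie side by side on chromosome 17 (17876471 to 17883939 and 17887824 to 17893952) and gave no called difference. Fpr1, the high-affinity receptor, had 258, 255 and 348 normalized counts in control mice against 338, 271 and 387 in the diseased-BWF1 group (log2 fold change 0.21, 95% CI -0.23 to 0.64). Fpr2, which also binds serum amyloid A and annexin peptides, had 263, 165 and 217 in control mice against 230.4, 156 and 199 in the diseased-BWF1 group (log2 fold change -0.14, 95% CI -0.65 to 0.36). The groups overlapped for both genes. The Fpr2 values are uncertain in part, because 25.6% of its 75-base stretches also occur in transcripts of Fpr3 or the pseudogene Gm5966. Fpr3 was at 0 in all 6 mice. Fpr1 shared none of its 1250 stretches of that length.

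The complement peptide receptors had the highest mean levels of the 10 per transcript length. C5ar1 (chromosome 7, 16246743 to 16259540), the receptor by which phagocytes follow the fragment released from the fifth complement component, had 825, 794 and 934 normalized counts in control mice and 705, 756 and 1026 in diseased-BWF1 mice. The groups overlapped, with a log2 fold change of -0.042 (95% CI -0.44 to 0.36). C3ar1 (chromosome 6, 122847140 to 122856157), the receptor of the corresponding fragment of the third component, had 1595, 1812 and 1236 normalized counts in control mice and 1236, 1191 and 1136 in diseased-BWF1 mice. Control 3 stood level with diseased-BWF1 1, the other control mice were higher, and the log2 fold change was -0.38 (95% CI -0.77 to 0.0053). C5ar2, the second receptor of the same C5 fragment, had 11.7 ± 3.06 normalized counts (SD, n = 3) among control mice and 8.28 ± 4.19 in diseased-BWF1 mice. For the 8 tested receptors other than Gpr132 the Benjamini-Hochberg adjusted p of edgeR's quasi-likelihood test ran from 0.386 for C3ar1 to 0.945 for C5ar1. Their p in an exact permutation test, two-sided, lay between 0.2 and 1. Over the 9 tested receptors the median log2 fold change was -0.065, beside 0.0053 for all genes tested, with 3 positive and 6 negative values.

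**Figure D3:**
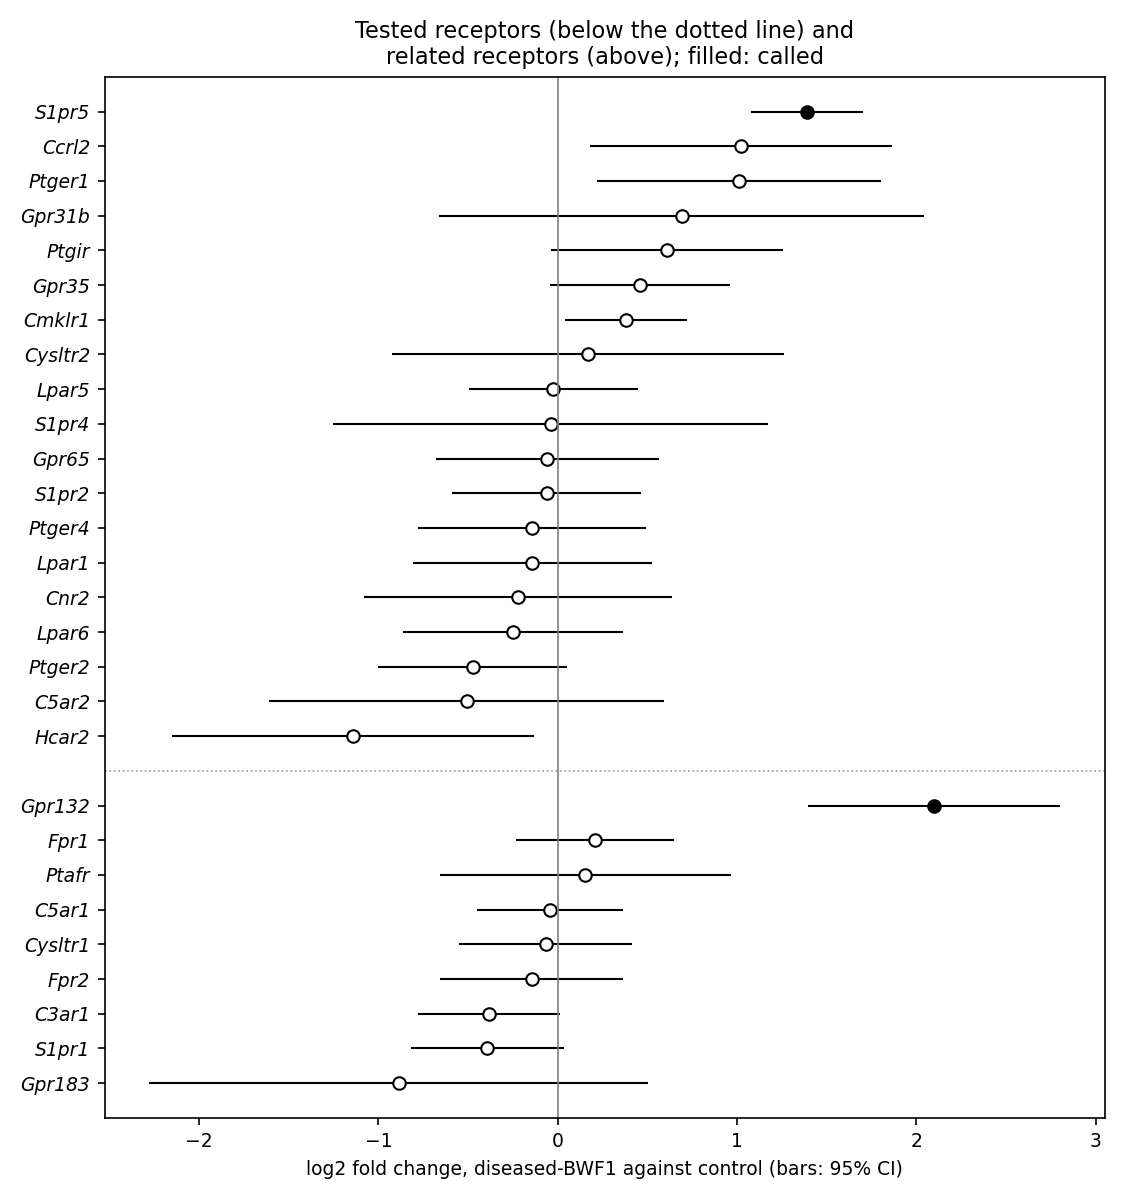
Log2 fold change of diseased-BWF1 against control mice (horizontal axis) with its 95% CI for the 9 tested receptors, below the dotted line, and 19 tested related receptors, above it. Filled points were called: Gpr132 at 2.10 and S1pr5 at 1.39, with open points for the others.

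Levels of different genes were compared as normalized counts per kilobase of the longest paired GENCODE transcript. Averaged over the 6 mice, C5ar1 (331 per kb) came first, followed by C3ar1 (318), Fpr1 (234), S1pr1 (232) and Fpr2 (181). C3ar1 was above Fpr1 in 5 of 6 mice, while the other neighbours among these 5 did not separate: C5ar1 was above C3ar1 in 3 of 6 mice, Fpr1 above S1pr1 in 2 of 6 and S1pr1 above Fpr2 in 3 of 6. The order of the means differed in control mice, where C3ar1 (359 per kb) was above C5ar1 (335) and S1pr1 (263) above Fpr1 (217). Fpr2 was above Ptafr in 4 of 6 mice. Ptafr (108 per kb) was above Cysltr1 (51.4 per kb) in 6 of 6 mice, and Cysltr1 was above Gpr132 (12.7 per kb) in 6 of 6. Gpr132 and Gpr183 (8.67 per kb) exchanged places between the groups. Gpr132 was above Gpr183 in 3 of 3 diseased-BWF1 mice and in 1 of 3 control mice. For Gpr132 the length is that of NM_019925.4, while the counts of control mice stood on a record whose length is not given in the sources used here. Gpr18 was lowest, at 0.67 per kb.

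**Figure D4:**
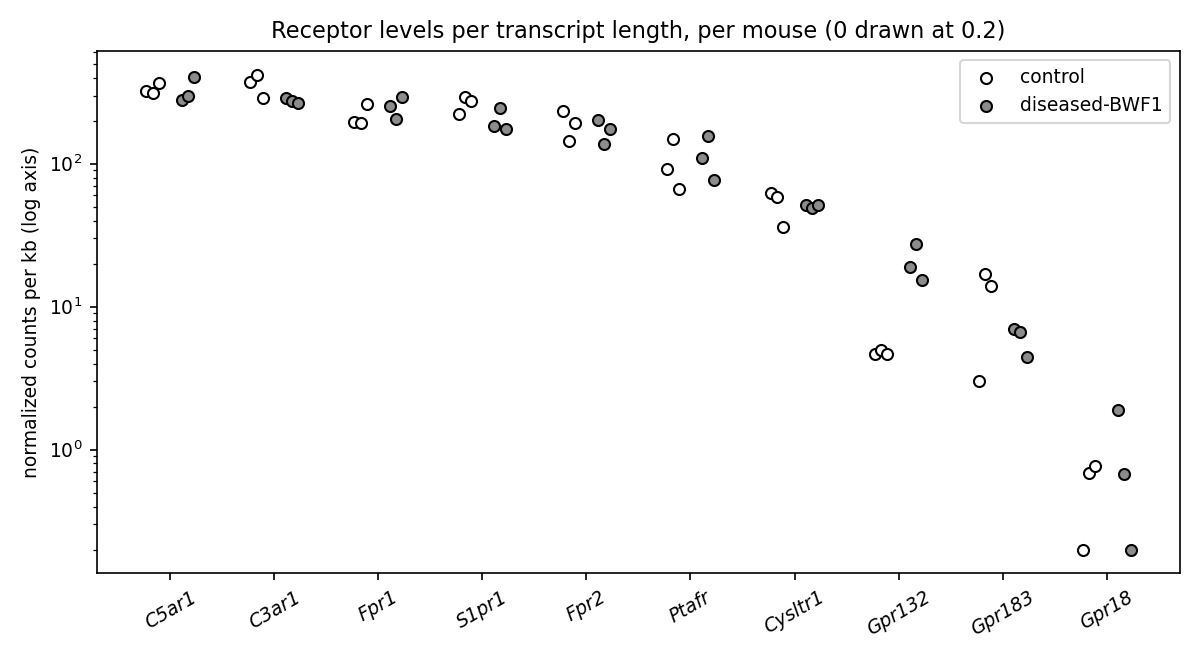
Normalized counts per kilobase of transcript (logarithmic vertical axis) of the 10 receptors in each mouse, control mice in white and diseased-BWF1 mice in gray, in order of the mean over 6 mice. The 5 genes on the left have means from 181 to 331 per kb, and Gpr132 separates the groups at 4.63 to 4.98 per kb and 15.5 to 27.4 per kb.

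Among the related receptors, Cmklr1, the chemerin receptor, was the most abundant, with 2280, 1992 and 1826 normalized counts in control mice and 2737, 2428 and 2787 in diseased-BWF1 mice. The groups did not overlap, and the log2 fold change of 0.38 (95% CI 0.046 to 0.71) was not called. The next in abundance was Gpr35, a receptor of kynurenic acid, with means of 383 and 529 in control and diseased-BWF1 mice. Lpar5, a lysophosphatidic acid receptor, had 388 and 382, and the prostaglandin E2 receptor Ptger4 had 191 and 173. Ptgir, the prostacyclin receptor, had 104 and 160.2. Ccrl2, which presents chemerin without signalling itself, had 73.5 and 149, and it overlapped between the groups because diseased-BWF1 3 had 72.6. In all, 5 of the 19 had an unadjusted p under 0.05, beside 13.2% of all tested genes, 8 had a positive and 11 a negative log2 fold change, and the median was -0.038. Of the 52 matched genes of this list 17 were at 0 in all mice.

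Genes that supply or remove the ligands gave 0 calls by edgeR's quasi-likelihood test among 31 tested of 52 listed (1.22% over all tested genes). The same test gave 5 genes at an unadjusted p under 0.05, with 0 calls by limma-voom and 2 by DESeq2, C3 and Sgpl1. Over all tested genes these shares were 13.2%, 0.866% and 3.54%. The median log2 fold change of the list was -0.036. C3, the source of the C3ar1 ligand, had 2208, 1362 and 1238 normalized counts in control mice and 3940, 3525 and 3088 in diseased-BWF1 mice. The groups did not overlap, the log2 fold change was 1.13 (95% CI 0.56 to 1.70), and the Benjamini-Hochberg adjusted p was 0.0859 by edgeR's quasi-likelihood test and 4.53e-04 by DESeq2. Sgpl1, the lyase that degrades sphingosine-1-phosphate, had 1195, 1429 and 1249 normalized counts in control mice and 759, 830 and 976 in diseased-BWF1 mice, with a Benjamini-Hochberg adjusted p of 0.129 by edgeR's quasi-likelihood test and 0.0118 by DESeq2. Hc, which encodes the fifth complement component, and Ch25h, which makes an oxysterol precursor of the Gpr183 ligand, were at 0 in all 6 mice. The most abundant genes of the list were Saa3, which encodes an acute-phase protein, Alox15, the lipoxygenase of resident PMs, and Cfp, which encodes properdin. Saa3 had 19730 and 23453 normalized counts on average in control and diseased-BWF1 mice, Alox15 had 21178 and 20754, and Cfp had 14076 and 8998. Cfb, which encodes complement factor B, had 3844 and 4450, and Pla2g7, which encodes a hydrolase of platelet-activating factor, had 3515 and 4657.

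The signalling machinery shared by these receptors gave 0 calls by edgeR's quasi-likelihood test among 41 tested of 48 listed (1.22% over all tested genes). The same test gave 5 genes at an unadjusted p under 0.05, with 0 calls by limma-voom and 1 by DESeq2, Plcb1. Over all tested genes these shares were 13.2%, 0.866% and 3.54%. Gnai2, the inhibitory G-protein subunit through which chemoattractant receptors mostly signal, was the most abundant, with 2894 ± 79.7 normalized counts (SD, n = 3) among control mice against 2821 ± 184 in diseased-BWF1 mice. Gnas, Gnb1, Gnai3, Arrb1 and Gnb2 followed, with group means from 1167 to 1585. The median log2 fold change of the list was -0.0080. Of 22 chemokine receptors 6 were tested and 0 called with edgeR's quasi-likelihood test, with 0 at an unadjusted p under 0.05. DESeq2 and limma-voom also called 0, beside the shares over all tested genes given above, and the median log2 fold change was 0.21. Ccr1 had 1898 ± 243 and 1581 ± 136 normalized counts in control and diseased-BWF1 mice (SD, n = 3). Ackr3, a scavenger of chemokines, had 177 ± 32.5 and 360 ± 252, Cxcr4 had 43.4 ± 57.0 and 69.1 ± 40.1, Cxcr2 had means of 16.4 and 12.7, and Ccr2 of 7.09 and 20.0.

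The genes whose pattern over the 6 mice was most like that of Gpr132 were Pglyrp1 (Pearson r = 0.996), Col22a1 (0.993) and Slc1a5 (0.992), computed on log2 CPM over all genes tested. These coefficients are descriptions of 6 mice in 2 groups. The nearest gene to S1pr1 was B9d2 (0.994), to Gpr183 Aasdhppt (0.986), to Ptafr Map3k9 (0.995), to Cysltr1 Galnt1 (0.993), to Fpr1 Srsf4 (0.988), to Fpr2 Parp1 (0.993), to C5ar1 Uri1 (0.977) and to C3ar1 Snx9 (0.996).

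The dendritic cell list of 6 genes summed to 169, 249 and 322 normalized counts in control mice and to 59.5, 68.9 and 35.3 in diseased-BWF1 mice. The control sums were mostly Cd209a, a lectin gene with 134, 213 and 280 normalized counts in control mice and 7.55, 18.2 and 5.04 in diseased-BWF1 mice (Benjamini-Hochberg adjusted p 0.0117 by edgeR's quasi-likelihood test), while Ccr7 was at 0 in all mice. Without Cd209a the groups overlapped, at 34.8, 36.0 and 41.3 in control mice and 51.9, 50.6 and 30.3 in diseased-BWF1 mice, and Zbtb46, the other tested gene of the list, had means of 27.5 and 36.7. The Benjamini-Hochberg adjusted p of Cd209a by edgeR's quasi-likelihood test was 0.0546 without control 2, 0.0708 without diseased-BWF1 1 and 0.0566 with curated mRNA records only, in a range from 2.12e-16 to 0.0708 over its 14 alternatives. The B cell list of 8 genes summed to 540, 625 and 513 in control mice and 379, 412 and 312 in diseased-BWF1 mice, nearly all of it from Bank1. Without Bank1 it was 27.3, 20.6 and 23 in control mice and 14.2, 14.2 and 5.04 in diseased-BWF1 mice. The 1 tested gene of the list, Bank1, was not called by edgeR's quasi-likelihood test, by DESeq2 or by limma-voom, with an unadjusted p under 0.05. By DESeq2 it had a Benjamini-Hochberg adjusted p of 0.0401 and missed only the threshold of 1.5-fold. The part of these lists in the receptor values was not tested.

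Markers of neutrophils, which carry Fpr1, Fpr2 and C5ar1 at high levels, were low: the 10 genes summed to between 40.5 and 127 normalized counts per mouse, with Mmp9 the most abundant on average and Ly6g and Retnlg at 0 in all 6 mice. The mast cell list of 8 genes summed to between 48.4 and 133, mostly Hdc, with Kit, Fcer1a, Mcpt4 and Tpsb2 at 0. The T and NK cell list of 8 genes reached at most 13.4, with Cd3d highest on average. The eosinophil list of 6 genes reached at most 10.1, with Siglecf highest on average and Prg2, Epx and Ear6 at 0. The mesothelial list of 6 genes reached at most 2.48, with Lrrn4 highest on average and Msln and Upk1b at 0. Of these 5 lists, 3 neutrophil genes and 1 mast cell gene were tested, and 0 were called by edgeR's quasi-likelihood test, 0 by DESeq2 and 0 by limma-voom, with 0 at an unadjusted p under 0.05. Over all tested genes these shares were 1.22%, 3.54%, 0.866% and 13.2%, in the same order.

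**Figure D5:**
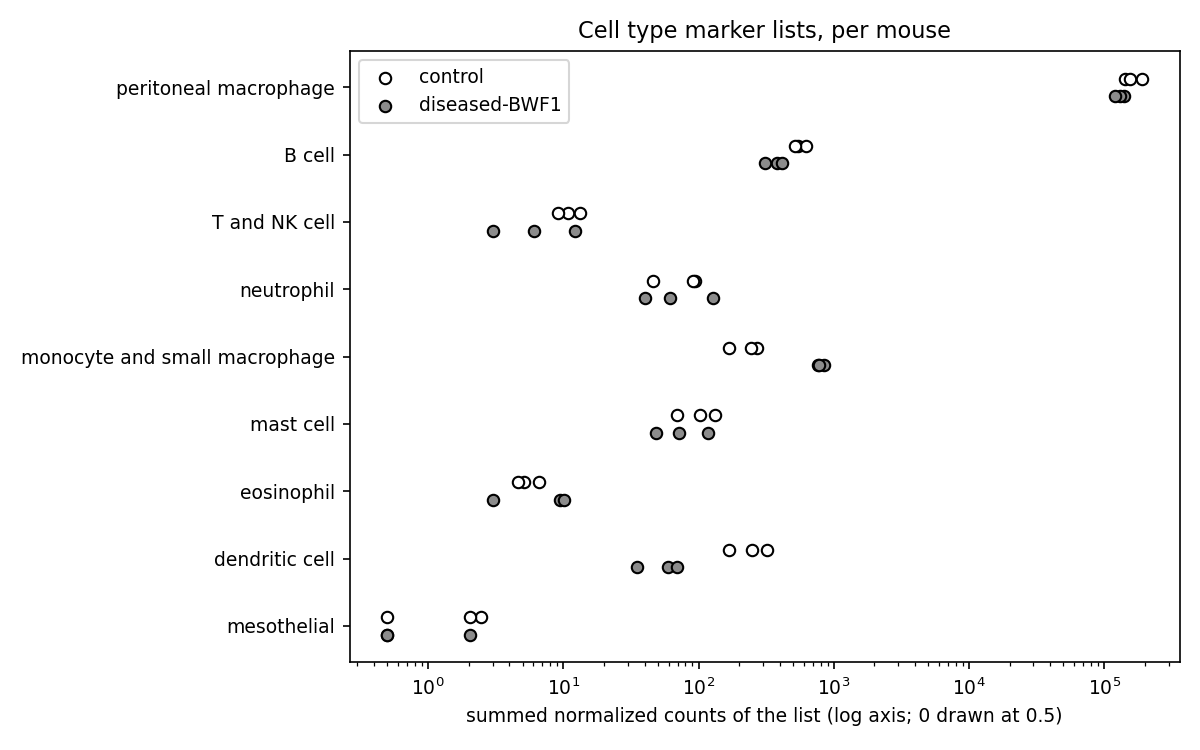
Summed normalized counts of each cell type marker list (logarithmic horizontal axis, 0 drawn at 0.5) in each mouse, control mice in white and diseased-BWF1 mice in gray. The macrophage list is at least 120395 in every mouse, the monocyte and small macrophage list is at 169 to 269.7 in control mice and 769.6 to 849 in diseased-BWF1 mice, and the mesothelial list is at or near 0.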

How the data were processed

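RNA of sorted PMs from 3 control and 3 diseased-BWF1 mice was sequenced by the authors as stranded paired-end libraries. The authors deposited estimated counts per RefSeq transcript record, rounded to whole numbers and without normalization, in 1 table for each mouse. The processing notes of the submitters name Salmon 0.8.0, DESeq2 and GRCm38.p6, and the strand setting of the counting is not given in the sources used here. Of 107193 records, 45754 matched a RefSeq gene by the same version and 40712 by another version, and these were summed per gene symbol. The 20727 unmatched records, which held 6.98% to 10.9% of the counts of a library, were not used. Each pair of libraries differed beyond sampling noise, with a chi-square per gene of at least 9.42.

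Groups were compared with edgeR 4.0.16 in R 4.3.3 (filterByExpr, TMM, glmQLFit, glmQLFTest, adjustment over all 10505 genes, no covariate), and the code was tested on simulated data. The SE of a log2 fold change was its absolute value divided by the square root of the F statistic of that test. Each 95% CI was built from this SE and a t quantile. Normalized counts used size factors of DESeq2 1.42.0, and limma 3.58.1 gave the voom alternative. Exons, lengths and shared stretches came from GENCODE M21, coordinates and promoters from RefSeq. Alternatives changed the test, scaling, filter, covariate, records and mice. At these depths 3 counts correspond to 0.652 to 0.888 CPM, which covers counting error only.

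The receptors and lists were chosen with earlier results of these data known. Named were all receptors, of each related list the called genes and up to 6 abundant ones, of each marker list the most abundant gene and markers at 0, and the genes with the highest Pearson r. A few items under this rule are not reported here. Adgre1, Itgam, Gata6, Timd4, Icam2, Zbtb46, S1pr2, S1pr3, Fpr3, C5ar2, C3, Sgpl1, Plcb1, Ace, Nr4a1, Irf4, Plac8, Ly6c2, Itgax, Hc and Ch25h fall outside this rule and were chosen after their values were seen, as were the motifs and the promoters shown.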

Additional observations from a re-analysis of the deposited data

How the results depend on the processing

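In 16 alternatives to the comparison of diseased-BWF1 with control mice, the number of genes called, 128, lay between 16 and 372 and stayed within 1.5 times in 5. It was 372 with DESeq2, 259 with no low-count filter, 84 with at least 10 counts in every library and 16 with curated mRNA records only. Leaving out each mouse in turn gave 21 to 51. Of the receptors, 1 was called in 8 alternatives, 0 with limma-voom or curated mRNA records only, and 0 to 1 when each mouse was left out. With the replicate number as a block, 38 genes and 0 receptors were called, and the log2 fold change of Gpr132 was 2.07 (Benjamini-Hochberg adjusted p 0.0649 by edgeR's quasi-likelihood test). The numbers did not pair the mice: the deviations of same-numbered mice from their group means correlated at 0.117, 0.00556 and 0.157 across genes, and not every mouse correlated best with its own number.

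The log2 fold change of Gpr132 was 2.03 with limma-voom and 8.70 with curated mRNA records only, where control mice are at 0 and the fitted value depends on the prior count. It was 1.85 to 2.27 when each mouse was left out, and its adjusted p over all alternatives ran from 2.52e-04 to 0.107 (edgeR's quasi-likelihood test, DESeq2 or limma with Benjamini-Hochberg adjustment). As single records, NM_019925.4 and XM_006516103.2 had fitted log2 fold changes of 8.12 and -6.03 with DESeq2. It called both, which restates that each had counts in a single group, and neither had at least 10 counts in every library. The cause of these changes was not tested, except that fits without a mouse have fewer samples.

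Signs of small differences turned when a mouse was left out: log2 fold changes ranged from -0.13 to 0.52 for Ptafr, -0.27 to 0.075 for Cysltr1, -0.30 to 0.024 for Fpr2 and -0.22 to 0.058 for C5ar1. Gpr183, S1pr1, Fpr1 and C3ar1 kept their sign and were not called in all 15 alternatives each. The alternatives for S1pr5 and Cd209a were chosen after seeing the data: S1pr5 was called in 14 of 15 and Cd209a in 11 of 14. At these depths the floor of 3 counts is 0.652 to 0.888 CPM.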
